A study of Mus musculus with 9 samples.

Results

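Nonclassical monocytes were chosen by their transcripts from single cell RNA sequencing of mouse bone marrow. A cell was taken as a member when it held at least 1 UMI (a counted RNA molecule) of *Treml4* or *Ace* together with at least 1 UMI of *Csf1r*. It also had to hold 0 UMIs of *Mki67*, *Top2a*, *Siglech*, and *Cd79a*, fewer than 3 UMIs of the 3 C1q genes, less than 1% of its UMIs from *Mpo*, *Elane*, and *Prtn3*, and less than 1% from *Camp* and *Ngp*. These conditions left 200 of the 39051 cells past the quality limits, which asked for 1000 or more UMIs, 500 or more genes, and no more than 10% of UMIs from mitochondrial genes. The members were 0.512% of all these cells and 13.2% of the 1513 cells that met every condition other than *Treml4* and *Ace*.

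The marrow came from the femurs of 9 female mice of 9 to 10 weeks of age. There were 3 New Zealand Black (NZB) mice, 3 New Zealand White (NZW) mice, and 3 of their hybrid offspring (NZBWF1), and 1 library was made per mouse with a 3′ kit. The hybrid is a model of lupus studied here at an age before illness sets in, and the comparison of strains asks how the marrow cells differ by then. The marrow had been through red cell lysis, and no sorting by surface protein was made, so every cell type here is named from RNA alone.

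Classical monocytes leave the marrow as cells rich in the chemokine receptor CCR2 and the surface antigen Ly6C, and part of them convert into nonclassical monocytes. Nonclassical monocytes depend on the transcription factor NR4A1, carry much CX3CR1 and little Ly6C, and crawl along the inner wall of blood vessels, where they take up debris and sense immune complexes through Fc receptors. TREML4 is a receptor of the TREM family found on these cells, ACE is the angiotensin-converting enzyme, and CSF1R is the receptor for the growth factors that sustain monocytes.

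By mouse, the members numbered 20, 5, and 18 in NZB, 23, 26, and 39 in NZW, and 28, 21, and 20 in NZBWF1. NZB replicate 2 stood apart with 5, and with fewer than 10 members it was left out of the tests of genes, except where all 9 mice are named. Its values stand beside those of the tested mice for the genes described singly between strains. The members of the other 8 mice held between 30555 and 62586 UMIs per mouse in all, and 3 UMIs were worth 47.9 to 98.2 CPM (UMIs of a gene scaled to a common total per library). Levels near or under that range rest on a few molecules. Of the 170 barcode sequences that occurred in more than 1 library, 1 belonged to a member.

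The members were shallow cells. Their median was 1370.5 UMIs and 811 genes, against 1758 UMIs in classical monocytes and 2313 in all cells, and the members ran from 1001 to 7697 UMIs. The lower limit therefore cut into them: 344 called cells met the gene conditions without any limit, and 144 of them (41.9%) were removed, 143 for too few UMIs. Of all called cells 42.9% were removed, and classical monocytes lost 7.78%. The loss was uneven between mice, from 2 of 30 in NZBWF1 replicate 1 to 32 of 37 in NZB replicate 2.

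*Treml4* was found alone in 67 members, *Ace* alone in 71, and both in 62. Since these genes chose the members, their values are given as a description. A single UMI of the pair was held by 98 members, 2 by 52, and 3 or more by 50, and the most was 7. The pair was also found in 0.622% of 8841 B cells (median 1938 UMIs) and in 2.53% of 14208 cells with high granule transcripts (median 2551.5 UMIs). A UMI of the pair is therefore not confined to the members, and its source in those other cells was not tested.

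The levels of other genes moved with the number of *Treml4* and *Ace* UMIs. The summed level of the 21 nonclassical markers that the rule did not use was 7527 CPM in members with 1 UMI, 11699 CPM with 2, and 14354.5 CPM with 3 or more. Cells just outside the threshold, which held *Csf1r* but 0 UMIs of the pair, had 2558 CPM. The 16 classical markers outside both rules ran the other way, at 7121, 4783, and 3214 CPM, and 9629 CPM in the cells outside. A *Ccr2* or *F13a1* UMI was present in 101 members (50.5%), and those had 7108 CPM of the nonclassical list and 7420 CPM of the classical list. The 99 without had 14037 and 3347 CPM. The classical list was also the higher one in the members of NZBWF1 replicate 2, at 8077 against 7719 CPM, and the lower one in those of the other 8 mice. The members thus spanned a range of both lists, and no test is given because their own cells set these divisions.

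The strains overlapped in the share of marrow cells that were members. It was 0.815%, 0.0979%, and 0.548% in the NZB mice, with a mean of 0.487% ± 0.362 (SD, n = 3). It was 0.534%, 0.506%, and 0.788% in NZW, with a mean of 0.609% ± 0.156 (SD, n = 3). It was 1.09%, 0.378%, and 0.352% in NZBWF1, with a mean of 0.607% ± 0.419 (SD, n = 3). Both the highest and the lowest hybrid lay outside the range of NZW. An exact permutation test over the 280 partitions of the 9 mice gave p = 0.889. The pairs of strains gave p = 0.7, 0.9, and 1 by exact permutation, where 3 mice against 3 cannot go below 0.1.

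**Figure D1:**
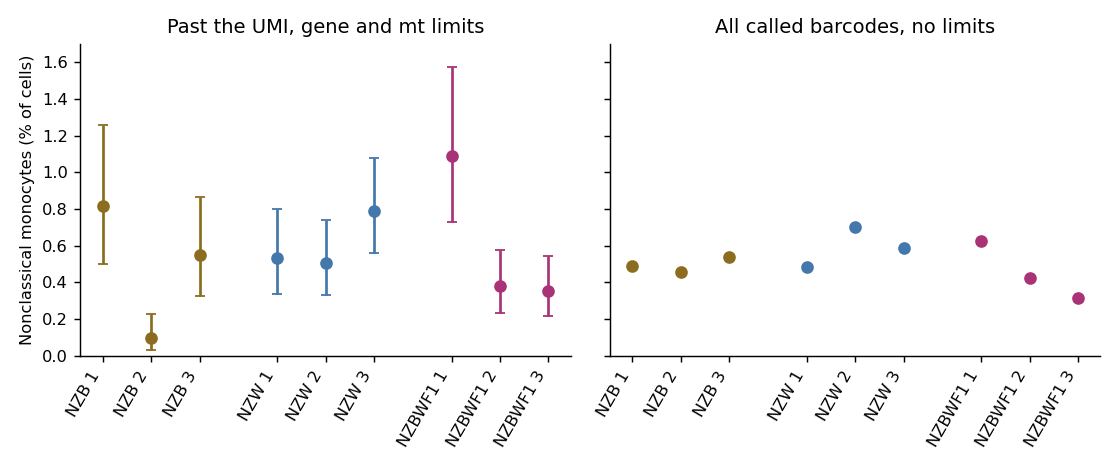
Nonclassical monocytes as a percent of cells in each mouse, past the limits (left, with exact 95% binomial intervals that cover counting error only) and among all called barcodes (right, no interval drawn). The low point at the left is NZB replicate 2 at 0.0979%, which stood at 0.456% without the limits.

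Without the limits, the shares in NZB were 0.491%, 0.456%, and 0.540%, with a mean of 0.496% ± 0.0424 (SD, n = 3), so the low mouse no longer stood apart. The 95% exact binomial interval for NZB replicate 2 past the limits was 0.0318% to 0.228%, and for NZB replicate 1 it was 0.498% to 1.26%, which do not meet. With the limit at 500 UMIs there were 338 members, and the same exact permutation test gave p = 0.507. Here and wherever 500 UMIs is named below, the limit on genes was dropped too. The order of the means turned there, with 0.542% in NZB and 0.488% in NZBWF1, beside 0.619% in NZW. Without any limit, the mean was 0.454% ± 0.159 in NZBWF1 and 0.590% ± 0.111 in NZW (SD, n = 3).

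The cells were next set against classical monocytes of the same mice, to ask what else sets them apart. Classical monocytes were 1233 cells under the same limits and exclusions, with *Csf1r*, 0 UMIs of *Treml4* and *Ace*, and at least 1 UMI of *Ccr2* or *F13a1*. Pooled over all members, the markers followed the label: all 21 nonclassical markers outside the rules were higher in the members in the pooled counts, with no filter. Of the 16 classical markers outside the rules, 13 were lower in the members, 2 were higher, and *Chil3* had 0 UMIs in both. The shares of all genes higher and lower in these pooled counts were not worked out. Of 72 interferon-stimulated genes, 54 were lower and 17 higher in the members, so this count has no share of all genes beside it. Among all genes called without a filter in the edgeR test of both classes described below, 780 were lower and 186 higher. The classical monocytes were also chosen by a *Ccr2* or *F13a1* UMI, and the part of that choice in the classical markers was not tested.

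*Nr4a1*, the factor that these cells depend on, was found in 31.5% of members and 3.00% of classical monocytes. Over the 8 mice its level in members ran from 145 to 433 CPM with a median of 275 CPM, and in classical monocytes from 0 to 40.9 CPM, without overlap. *Cd300e*, an activating receptor of monocytes, was at 155 CPM in the pooled members and 1.25 CPM in classical monocytes. *Eno3*, an enolase of glycolysis, was at 327 CPM against 5.41 CPM. *Cx3cr1* was less sharply divided. Its level was 229 to 489 CPM in members and at most 246 CPM in classical monocytes, higher in members in 7 of the 8 mice. *Ly6c2* went the other way, with 431 CPM in the pooled members and 1289 CPM in classical monocytes, and a log2 fold change of -1.48 ± 0.47 (SE, adjusted p = 0.0493, edgeR). Its count and that of the near-identical *Ly6c1* may be divided unevenly, so both are uncertain. Their sum was higher in members than in classical monocytes in NZBWF1 replicate 2, at 1400 against 1232 CPM. It was lower in members in every other mouse, with 908 against 1324 CPM in NZBWF1 replicate 3.

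**Figure D2:**
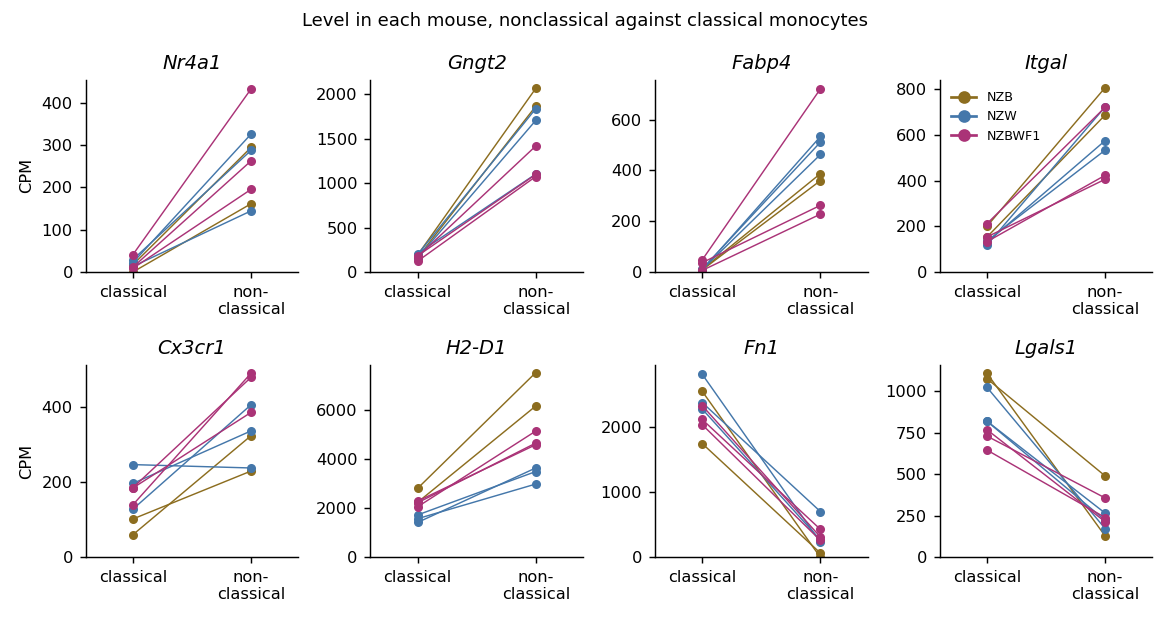
Levels of 8 genes in CPM for each of the 8 mice with at least 10 members, in classical and nonclassical monocytes, with a line joining the cells of 1 mouse and colours for the strain. *Fn1* and *Lgals1* fell in every mouse, and *Cx3cr1* rose in 7 of 8.

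In a test of the summed counts of both classes with the mouse as a block (edgeR quasi-likelihood), 367 of 1216 genes passed an adjusted p of 0.05, which is 30.2% of those tested. There were 202 genes higher in nonclassical monocytes (16.6%) and 165 lower (13.6%). Of the 367, 204 moved one way in all 8 mice and held at least 20 UMIs in the higher class. That share over all genes tested was not counted. The 17 genes of the rules were not tested. The members were shallower than the classical monocytes and held fewer mitochondrial UMIs (median 2.75% against 3.67%), and the part of these differences in the result was not tested.

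The genes that rose most, among those with one direction in every mouse and 20 UMIs in the higher class, were led by *Fabp4*, a carrier of fatty acids. It was at 228 to 721 CPM in members and at 6.53 to 47.7 CPM in classical monocytes. Its log2 fold change was 4.66 ± 0.28 (SE, adjusted p = 1.05e-21, edgeR). *Nr4a1* followed at 3.83 ± 0.31, and then *Gngt2*, a G protein subunit, at 3.12 ± 0.14. *Adgre4*, an adhesion receptor related to F4/80, rose by 2.99 ± 0.22 on the log2 scale. *Cd244*, a receptor of the SLAM family, rose by 2.96 ± 0.27. *Hfe*, which tunes iron uptake, *Stap1*, an adaptor protein, and *Pglyrp1*, which binds bacterial peptidoglycan, rose by 2.68, 2.58, and 2.49 on that scale. *Cd300c2*, a receptor, *Pou2f2*, a transcription factor, *Smc6*, a chromosome maintenance protein, and *Metrnl*, a secreted protein, rose by 2.47, 2.31, 2.06, and 2.02. *Itgal*, *Spn*, and *Fcgrt* completed the 15, at 2.03, 2.01, and 1.79, and are taken up with their groups.

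The genes that fell most were led by *Fn1*, the matrix protein fibronectin. It was at 0 to 703 CPM in members and at 1748 to 2811 CPM in classical monocytes, with a log2 fold change of -2.90 ± 0.38 (SE, adjusted p = 0.000782, edgeR). *Slpi*, an inhibitor of proteases, fell by 2.30 on the log2 scale. *Lgals1*, which encodes a galectin, *Capg*, which caps actin filaments, *S100a10*, of the S100 family, *Vim*, the filament protein vimentin, and *Tmsb10*, a thymosin, had log2 fold changes of -1.69, -1.66, -1.61, -1.36, and -1.34. *Pycard*, the adaptor of the inflammasome, fell by 1.51, *C3*, the central complement protein, fell by 1.499, and *Mmp8*, a collagenase of neutrophils, fell by 1.38. *Ethe1*, an enzyme of sulfide breakdown, *AI839979*, *Hopx*, and *Irf2bp2* were at -1.72, -1.53, -1.48, and -1.30.

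Of the transcription factors of monocytes, 10 of 14 tested were higher, where 16.6% of all genes were, 0 were lower, and 4 did not pass, with a median log2 fold change of 0.77 against -0.01 over all genes tested. *Cebpb*, which sustains these monocytes, rose by 1.31 ± 0.11 on the log2 scale (adjusted p = 2.26e-16, edgeR). *Klf2*, a factor of quiescence and trafficking, rose by 1.39 and was higher in 7 of the 8 mice. *Spi1*, which encodes PU.1, rose by 0.65. *Irf8*, needed earlier in the lineage, had a value of -0.04 and did not pass (adjusted p = 0.893).

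Adhesion and trafficking genes had 6 higher and 2 lower of 11 tested, beside 16.6% and 13.6% over all genes. *Itgal* and *Itgb2* encode the chains of LFA-1, the integrin with which these cells hold to endothelium. *Itgal* was at 406 to 807 CPM in members against 118 to 211 CPM, and *Itgb2* at 511 to 1065 CPM against 223 to 348 CPM, with no overlap for either. Their log2 fold changes were 2.03 ± 0.17 and 1.29 ± 0.15. *Spn*, the sialomucin CD43 used to sort these cells, rose by 2.01, *Itgb1* by 1.51, and *Cx3cr1* by 1.23. *Itgb7*, an integrin chain, fell by 0.67.

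Of the Fc receptors, 3 of 6 were tested. *Fcer1g*, the signalling chain, rose by 0.78 ± 0.08 on the log2 scale, and *Fcgrt*, which recycles antibody, rose by 1.79 ± 0.25. *Fcgr3* was at 0.29 and did not pass (adjusted p = 0.222, edgeR). *Fcgr4*, the receptor typical of nonclassical monocytes, was too low in several mice for the test. It stood at 32.0 to 1342 CPM in members and at 2.45 to 93.3 CPM in classical monocytes, with a higher level in members in 8 of 8 mice.

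MHC class I genes were higher in 4 of 5 tested, beside 16.6% of all genes, with a median log2 fold change of 0.94 against -0.01 over all genes. *H2-D1* was at 2988 to 7527 CPM in members and at 1422 to 2809 CPM in classical monocytes, and rose by 1.25 ± 0.08. *H2-K1* rose by 1.34, and *B2m*, the shared light chain, by 0.94. The MHC genes are close copies that differ between strains, so counts of single members are uncertain.

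MHC class II transcripts were uneven among the members. None of 5 tested genes passed the test, where 30.2% of all genes did (0 at adjusted p under 0.05, edgeR; 1, *H2-DMa*, at an unadjusted p of 0.0410), although the 4 others had log2 fold changes between 1.36 and 1.58. Of the 200 members, 133 held 0 UMIs of *Cd74*, *H2-Aa*, *H2-Ab1*, and *H2-Eb1*, while 35 (17.5%) held 5 or more. The 10 members with most held 67.4% of the 1834 UMIs. In classical monocytes 122 of 1233 cells (9.89%) held 5 or more. B cells are rich in these transcripts, and *Cd79a* was at 0 by the rule, while the summed level of the 10 B-cell markers was 229 to 1264 CPM in members and 226 to 716 CPM in classical monocytes over the 9 mice. Their part in the class II values was not tested.

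Receptors with inhibitory or paired signalling had 6 genes higher and 2 lower of 10 tested, and the same shares of all genes apply. *Clec4a3*, *Cd300a*, and *Clec4a1* rose by 1.72, 1.26, and 1.23 on the log2 scale, while *Pira2* and *Clec4a2* were at -1.30 and -1.07. Among genes of phagocytosis and the lysosome, 6 rose and 2 fell of 14, against the same shares. *Ctsb* and *Ctss*, cathepsins that cut proteins in the lysosome, rose by 1.12 and 0.85. *Apoe*, the lipid carrier, rose by 2.42 ± 0.54, but not in every mouse. *Lyz2*, the lysozyme of myeloid cells, fell by 0.28. *Mcl1*, a survival factor, rose by 0.72.

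Interferon-stimulated genes had 3 higher and 5 lower of 23 tested, with a median log2 fold change of -0.31, and these counts lie near the shares of all genes called (16.6% higher and 13.6% lower). *Ly6e* rose by 0.62, and *Slfn5* and *Ifi203* fell by 1.20 and 1.01.

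**Figure D3:**
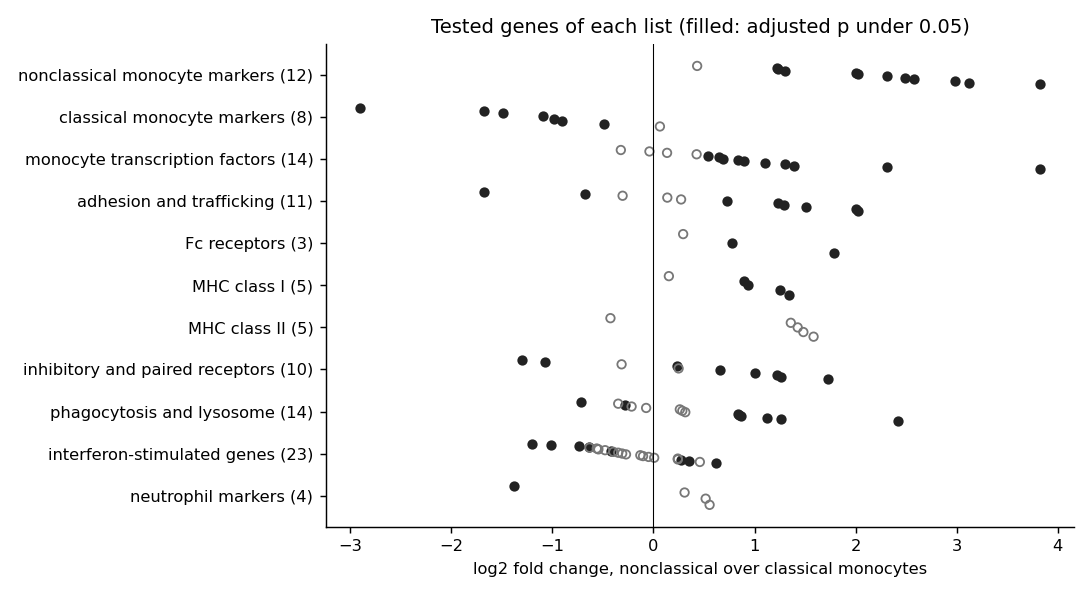
Log2 fold change of nonclassical over classical monocytes for each tested gene of 11 lists, with the number tested in brackets. Filled points passed an adjusted p of 0.05, and no classical marker and no transcription factor passed against the direction of its list.

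The neutrophil markers were unequal between libraries. Their summed level in members was 33459 CPM in NZBWF1 replicate 3 and 549 to 9160 CPM in the other 8 mice, and it was 1870 to 12850 CPM in classical monocytes. In that library 3 of the 20 members had over 5% of their UMIs from *S100a8* and *S100a9*, and the highest had 24.5%. Without the cells of both classes that had at least 1% of their UMIs from this pair (190 members and 1178 classical monocytes remained), the class comparison called 351 genes and NZB against NZW called 18. In the class comparison 3 of the 4 tested neutrophil markers did not pass, and *Mmp8* fell. This lies near the shares of all genes, of which 30.2% were called and 13.6% were lower. Without NZBWF1 replicate 3, the class comparison called 406 genes. Over the 9 mice, the summed macrophage markers of members were at 115 to 710 CPM, the T and NK cell markers at 0 to 1215 CPM, and the erythroid markers at 29.6 to 367 CPM.

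Between the parent strains, the ferritin light chain led the genes called in nonclassical monocytes. In a fit of the 3 strains (edgeR quasi-likelihood, 2 NZB, 3 NZW, and 3 NZBWF1 mice), 17 of 664 genes (2.56%) passed an adjusted p of 0.05 between NZB and NZW. There were 10 higher in NZB and 7 lower. The tested mice of both strains did not overlap for any of the 17, as genes picked for a low p mostly would not. The share without overlap over all 664 genes was not counted. With the NZB mouse left out counted in, *Fn1*, *Fth1*, and *Rps2* overlapped. The count was 9 without NZB replicate 1 or 3. Each fit without either of these, here and for the single genes that follow, holds 1 NZB mouse, which is assumed to vary like the mice of the other strains, so it says little about the spread within NZB.

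Ferritin stores iron in a shell of heavy and light chains. The files count the light chain under *Ftl1* (4 exons, chr7:45457944-45459884, minus strand, mm10) and under *Ftl1-ps1*, named as a pseudogene but typed as protein coding in GENCODE vM21 (1 exon in the transcript used here, chr13:74399694-74407346, plus strand). The coding parts of their transcripts there are 552 bases each and the same at 550 positions (99.6%). The stretch from position 456 to 515 of the coding sequence, counted from 1 at the start codon, is shown because it holds both differences, which are in capitals:
Ftl1: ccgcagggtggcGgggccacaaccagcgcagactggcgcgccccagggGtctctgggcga
Ftl1-ps1: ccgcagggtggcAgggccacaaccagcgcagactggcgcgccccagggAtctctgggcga
Written with the base of *Ftl1* first, the differences are G468A and G504A. The 163 aligned bases after the stop codon differ at 1 position, apart from 28 unaligned positions. Which read positions decide each count was not examined.

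*Ftl1* was at 10267 CPM and 8149 CPM in the NZB mice tested and at 5859 CPM in the third. It was at 202, 504, and 128 CPM in NZW, and at 3846, 5178, and 3320 CPM in NZBWF1. The 3 strains did not overlap. *Ftl1-ps1* ran the other way, with 129 and 65.5 CPM in NZB (0 in the third), 6478, 7381, and 5528 CPM in NZW, and 2836, 4104, and 3057 CPM in NZBWF1. The log2 fold change of NZB over NZW was 5.13 ± 0.45 for *Ftl1* (adjusted p = 0.000492) and -6.004 ± 0.32 for *Ftl1-ps1* (adjusted p = 6.14e-20, edgeR).

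**Figure D4:**
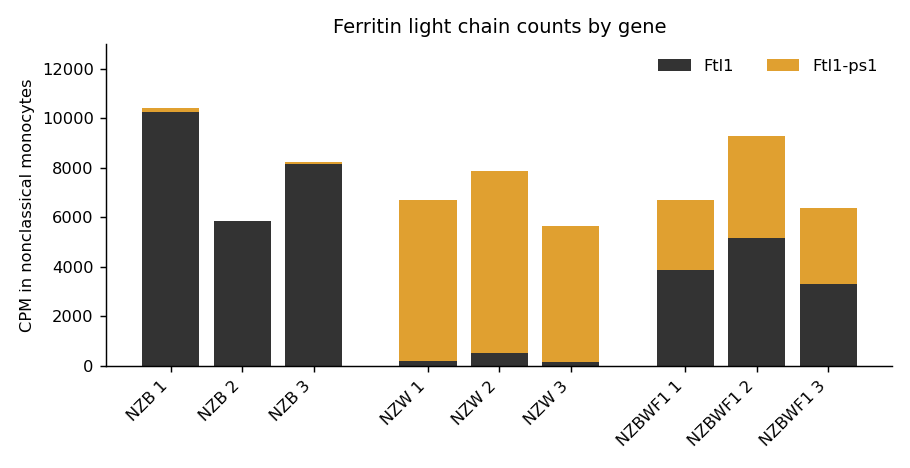
Level of *Ftl1* (dark) and *Ftl1-ps1* (light) stacked for the nonclassical monocytes of each of the 9 mice, in CPM. NZB bars are nearly all *Ftl1*, NZW bars nearly all *Ftl1-ps1*, and NZBWF1 bars hold 42.4% to 47.9% *Ftl1-ps1*.

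The sum of both differed less. It was 8157 ± 2269 CPM in NZB, 6740 ± 1116 CPM in NZW, and 7447 ± 1597 CPM in NZBWF1 (SD, n = 3 each), and an exact permutation over the 9 mice gave p = 0.611. That NZB mean counts the mouse left out of the gene tests, at 5859 CPM. The 2 tested NZB mice had 10396 and 8215 CPM, above the NZW mice at 5656 to 7885 CPM. In classical monocytes the sum was 8558, 6382, and 7467 CPM in NZB and 5212, 5204, and 4862 CPM in NZW. These did not overlap, and that difference was not tested. In NZBWF1 the split lay near the midpoint of the parents on the linear scale. *Ftl1-ps1* had a mean of 3332 ± 677 CPM (SD, n = 3) where the midpoint of the 2 tested NZB mice and the 3 NZW mice was 3280 CPM, and *Ftl1* had 4115 ± 958 CPM where that midpoint was 4743 CPM. Classical monocytes showed the same split, with 0.234% to 0.416% *Ftl1-ps1* in NZB, 96.0% to 97.2% in NZW, and 44.8% to 49.5% in NZBWF1. The heavy chain *Fth1* was at 5230 and 5596 CPM in NZB (3102 in the mouse left out) and at 2689, 3705, and 3068 CPM in NZW. It was higher in NZB than in NZW by 0.78 ± 0.20 on the log2 scale (adjusted p = 0.0203, edgeR), a call that was lost without either NZB mouse (adjusted p = 0.141 and 0.314), NZW replicate 1 (0.227), or NZW replicate 3 (0.0780).

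*Apoe* (chr7:19696109-19699188) was lower in NZB. It was at 323 and 65.5 CPM in NZB, 1128, 1126, and 927 CPM in NZW, and 433, 423, and 478 CPM in NZBWF1, with 0 in the NZB mouse left out. The NZB and NZW mice did not overlap, and the hybrid lay between them. The log2 fold change of NZB over NZW was -2.41 ± 0.42 (adjusted p = 0.000269, edgeR), and the gene passed in each fit with a mouse left out (highest adjusted p = 0.0372, without NZB replicate 3). It was lost among members with at least 2 UMIs of *Treml4* and *Ace* (adjusted p = 0.211), where NZB replicate 1 was the lone NZB mouse with 10 members and was assumed to vary like the others. *Fn1* was also lower in NZB, with 0 and 65.5 CPM against 231, 267, and 703 CPM in NZW. It rested on 2 UMIs in NZB, and the pooled level of NZW was 14.3 times that of NZB with a 95% counting interval of 3.80 to 121. The NZB mouse left out had 804 CPM, and with all 9 mice the gene did not pass (adjusted p = 0.741, edgeR). Nor did it pass without NZB replicate 1 (0.129) or NZW replicate 3 (0.199).

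*Bcl2a1b* (chr9:89199209-89207827), of a family that holds back cell death, was higher in NZB. It was at 613 and 753 CPM in NZB, and at 919 CPM in the mouse left out, against 174, 148, and 79.9 CPM in NZW. NZBWF1 had 312, 97.7, and 167 CPM and overlapped NZW. The log2 fold change of NZB over NZW was 2.42 ± 0.46 (adjusted p = 0.000492, edgeR). Its copies are close in sequence, and the sum of *Bcl2a1a*, *Bcl2a1b*, and *Bcl2a1d* kept the order, at 807, 919, and 949 CPM in NZB and 192 to 231 CPM in NZW. *Napsa*, an aspartic protease, was at 1001 and 982 CPM in NZB (1149 in the mouse left out) and at 434, 178, and 288 CPM in NZW. *Sh3bgrl3*, a small redox-like protein, was at 1937 and 1473 CPM (1494 in the mouse left out) against 636, 682, and 543 CPM, and its call was lost without NZB replicate 1 (adjusted p = 0.0627). Both *Bcl2a1b* and *Napsa* passed in each fit with a mouse left out, with the same limit for NZB. Both lost the call where *Treml4* alone chose the members (adjusted p = 0.127 and 0.174, edgeR), with at least 2 UMIs of *Treml4* and *Ace* (0.331 and 0.231), and in members without *Ccr2* or *F13a1* (0.263 for each).

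**Figure D5:**
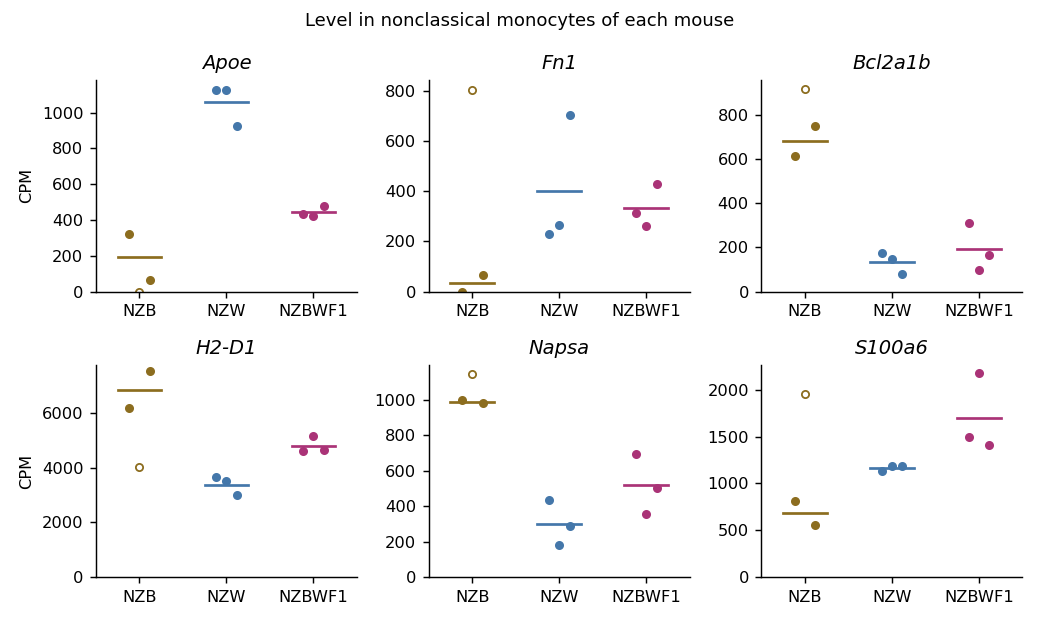
Levels of 6 genes in CPM in the nonclassical monocytes of each mouse, with a line at the mean of the mice tested and an open circle for NZB replicate 2, which had 5 members and was not tested. *Apoe* is lowest in NZB, and the open circle lies far from the other NZB mice for *Fn1* and *S100a6*.

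*H2-D1* was at 6166 and 7527 CPM in NZB (4021 in the mouse left out) and at 3644, 3498, and 2988 CPM in NZW. Its log2 fold change was 1.02 ± 0.18 (adjusted p = 0.000269, edgeR). It was 0.87 without NZB replicate 3, where the gene did not pass. Nor did *H2-D1* pass in members without *Ccr2* or *F13a1* (adjusted p = 0.193, edgeR) or without the filter on low counts (0.0545). Summed with *H2-K1*, it was at 8523 and 10604 CPM in NZB and at 5061, 5691, and 4490 CPM in NZW. The NZB mouse left out had a sum of 5285 CPM, within the range of NZW. The other genes higher in NZB were *Srgn*, a proteoglycan of granules, *Hsp90ab1*, a chaperone, *Fxyd5*, a membrane regulator, and *Rps3a1*, a ribosomal protein, with log2 fold changes between 0.84 and 1.08. Lower in NZB were *Rps2*, *Crip1*, *mt-Nd1*, and *mt-Co1*, with log2 fold changes between -1.27 and -0.67. The quality limits capped the summed mitochondrial UMIs of each cell at 10%, and *mt-Nd1* and *mt-Co1* were still tested. *Rps2* was at 743 and 720 CPM in NZB and at 1582 to 1880 CPM in NZW, with 1608 CPM in the NZB mouse left out. Each of these 8 lost its call without NZB replicate 3, and all but *Hsp90ab1* also lost it without NZB replicate 1. *Fxyd5*, *Rps3a1*, *mt-Nd1*, and *mt-Co1* also lost it without any one of the NZW mice, *Srgn* without NZW replicate 2 or 3, *Hsp90ab1* without NZW replicate 2, and *Crip1* without NZW replicate 3. Each of the 8 lost its call in members without *Ccr2* or *F13a1*. There *Srgn* and *Hsp90ab1* had log2 fold changes of 0.43 and 0.42, against 1.08 and 1.03 in all members. *Crip1*, *mt-Nd1*, and *mt-Co1* had -0.79, -0.56, and -0.47, against -1.22, -0.996, and -0.67. *Fxyd5* and *Rps2* moved less, to 0.78 and -1.11 from 0.95 and -1.27. *Rps3a1* rose to 1.001 from 0.84. That fit tested 318 genes in 6 mice. NZW replicate 2 and NZBWF1 replicate 2, with 9 members each, were left out, and the part of this in the lost calls was not tested.

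Between NZB and NZW, 2.56% of all genes passed, so counts of 0 in the short lists that follow lie near that share. Of the 14 nonclassical markers tested, 0 passed the adjusted threshold (edgeR), and 0 had an unadjusted p under 0.05, with a median log2 fold change of 0.06 against -0.04 over all genes. The spread was wide for some of them. *Fcgr4* had a log2 fold change of 2.34 ± 1.11 (adjusted p = 0.563). By edgeR, 0 of 4 Fc receptors, 0 of 8 interferon-stimulated genes, 0 of 10 adhesion genes, and 0 of 8 receptors with paired signalling passed, with 1 gene of each list at an unadjusted p under 0.05. Likewise 0 of 12 transcription factors and 0 of 5 MHC class II genes passed, with 0 at that unadjusted level. DESeq2 called 7 genes in all, each among the 17. The classical markers gave 1 lower of 8, which was *Fn1*. A *Ccr2* or *F13a1* UMI was held by 8 of 20 and 7 of 18 members in the tested NZB mice. In NZW it was held by 10 of 23, 17 of 26, and 24 of 39, and its part in the strain calls was not tested. Many genes of these lists were too low for the test, as 8 of 72 interferon-stimulated genes and none of 15 complement genes passed the filter.

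The hybrid was then compared with each parent. Against NZB, 2 of 664 genes passed (0.301%), a count that was 9 without NZB replicate 3 or NZW replicate 2, 6 without NZW replicate 3, 4 without NZBWF1 replicate 1, and 1 without NZB replicate 1. The 2 genes were *Ftl1-ps1* at 5.06 ± 0.33 on the log2 scale and *S100a6* at 1.32 ± 0.29 (adjusted p = 0.0156, edgeR). Against NZW, 2 passed (0.301%), *Ftl1* at 3.98 ± 0.43 and *Ftl1-ps1* at -0.94 ± 0.18. The call of *Ftl1* was lost without NZBWF1 replicate 1 (adjusted p = 0.188, edgeR). That of *Ftl1-ps1* was lost without NZW replicate 1 (0.0610), without NZW replicate 2 (0.0520), and in members without *Ccr2* or *F13a1* (0.464). These comparisons share the hybrid mice. Against the mean of the parents on the log scale, 2 passed (0.301%), *Ftl1-ps1* at 2.06 ± 0.21 and *S100a6* at 0.93 ± 0.22 (adjusted p = 0.0321, edgeR). *Ftl1* had 1.42 ± 0.33 against that mean and did not pass (adjusted p = 0.526).

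*S100a6* (chr3:90612882-90624181) encodes a calcium-binding protein of the S100 family. It was at 1490, 2182, and 1409 CPM in NZBWF1, 807 and 556 CPM in NZB, and 1128, 1186, and 1182 CPM in NZW. The 3 strains did not overlap, but the NZB mouse left out had 1953 CPM, and with all 9 mice the difference from NZB was 0.89 on the log2 scale and did not pass (adjusted p = 0.537, edgeR). The call against NZB was also lost without NZB replicate 1 (adjusted p = 0.0511), NZB replicate 3 (0.394), or NZBWF1 replicate 2 (0.0743). The 3 tested neutrophil markers had a median log2 fold change of 1.63 of NZBWF1 over NZB, and 0 of them passed (edgeR, smallest unadjusted p = 0.374). Without members that had at least 1% of UMIs from *S100a8* and *S100a9*, *S100a6* still passed against NZB. It did not pass with at least 2 UMIs of *Treml4* and *Ace* (log2 fold change 0.16, adjusted p = 0.963), in members without *Ccr2* or *F13a1* (0.56, adjusted p = 0.866), with *Treml4* alone (adjusted p = 0.211), or by DESeq2 (adjusted p = 0.224). Against the mean of the parents its call was lost without NZB replicate 3 (adjusted p = 0.264, edgeR), NZW replicate 1 (0.127), or NZBWF1 replicate 2 (0.350).

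Finally, the difference between the parents was compared between the 2 classes of monocytes. The interaction of strain and class called 2 of 2228 genes (0.0898%), *S100a6* and *Crip1*, both with a lower difference of NZB from NZW in nonclassical monocytes. *Crip1*, a small LIM-domain protein, was at 452 and 655 CPM in NZB (1034 in the mouse left out) and at 1157, 1334, and 1358 CPM in NZW among members, and at 1670 to 1841 CPM and 1559 to 1750 CPM among classical monocytes, where the strains overlapped. None of the other 8 genes of smallest p passed. *Anxa2*, *Hsp90b1*, *Scp2*, and *Lgals3* had negative values and *Cmtm7*, *Rnase6*, *Malat1*, and *Hsp90ab1* positive ones, with adjusted p from 0.155 to 0.383. For *Ftl1* the interaction was -0.27 ± 0.43 and for *Ftl1-ps1* it was 1.68 ± 0.58 (adjusted p = 0.936 and 0.672, edgeR), the latter on 6 UMIs in the members of the tested NZB mice.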

How the data were processed

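UMI counts of 31053 genes per barcode were deposited by the authors as whole numbers without normalization, made with Cell Ranger 3.1.0 and bcl2fastq 2.20 on mm10 per the labels. The annotation release, and whether merging thinned the libraries to equal depth, are not given in the sources used here. The number after each barcode was read as the line of the deposited library list, and 0 columns had no mouse. GENCODE vM21 held 31011 of the gene identifiers. Counts were summed over the members of each mouse and tested with edgeR 4.0.16 (filterByExpr, TMM, robust quasi-likelihood fit, Benjamini-Hochberg over all genes tested, R 4.3.3), with all strains in 1 fit and mice with fewer than 10 members left out. The SE of a fitted log2 fold change was taken from that value and its F statistic. DESeq2 1.42.0 was an alternative. The fit was tested on simulated data. Between NZB and NZW it recovered 72 of 181 tested genes changed 2-fold and 169 of 191 changed 4-fold. It called 1 and 4 other genes, so a 2-fold difference between these strains could often be missed. Shares were tested by exact permutation of mice. Doublets were scored against artificial pairs, and 0 members were among the cells removed in that alternative. Free RNA came from barcodes under 100 UMIs and was subtracted in another.

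The members, gene lists, tests, and alternatives were chosen with earlier results of these data known. Named for each pair of strains are the 10 genes that rose and the 10 that fell most among those called, without overlap of mice and with 20 UMIs in the higher strain; for the mean of the parents, the genes called; for the classes, 15 each way with one direction in every mouse, of which 1 is not reported here; for the interaction, the 10 of smallest p; and a few genes per list, mostly by p. *Cd300e*, *Eno3*, *Fcgr4*, *Lyz2*, and *Ftl1* against the mean of the parents were named after their values were seen, and the genes of the rule are described without a test. Replicates are separate mice. Intervals cover counting error only.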

Additional observations from a re-analysis of the deposited data

Results flagged for a closer look

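For *S100a6*, the log2 difference of NZB from NZW was lower by 1.22 in nonclassical than in classical monocytes, an interaction of -1.22 ± 0.27 (SE, adjusted p = 0.0206, edgeR). Among members it was at 807 and 556 CPM in NZB and 1128 to 1186 CPM in NZW, and among classical monocytes at 2829 and 3029 CPM in NZB and 1975 to 2339 CPM in NZW, so the strains were ordered in opposite ways in the mice tested. The NZB mouse left out had 1953 CPM among its 5 members, and with all 9 mice the interaction was -0.81 (adjusted p = 0.479). For *Crip1* the interaction was -1.25 ± 0.29 (adjusted p = 0.0342, edgeR), and with all 9 mice its adjusted p was 0.289. Both calls were lost with NZW replicate 2, NZW replicate 3, or NZB replicate 3 left out, and that of *Crip1* also without NZB replicate 1, NZW replicate 1, or NZBWF1 replicate 1. Neither passed by DESeq2 (adjusted p = 0.9998 for both), nor by edgeR with at least 2 UMIs of *Treml4* and *Ace* (0.779 for *S100a6* and 0.343 for *Crip1*), with *Treml4* alone (0.0583 and 0.104), in members without *Ccr2* or *F13a1* (0.870 and 0.825), or at 500 UMIs with all 9 mice (0.142 and 0.119). With at least 2 UMIs, the interaction called 2 other genes, both in the opposite direction. No cause was tested.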

How the results depend on the processing

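The share gave exact permutation p from 0.507 to 0.968 over the alternatives (0.593 to 0.961 with a mouse left out). Counts of genes called moved more. Between NZB and NZW (17), DESeq2 called 7, a minimum of 10 counts in every library 10, members with at least 2 UMIs of *Treml4* and *Ace* 3, *Treml4* alone 6, the 99 members without *Ccr2* or *F13a1* 4 (excluding *Vcan* as well removed no further cell), all 9 mice 10, all 9 mice at 500 UMIs 35, and leaving out a mouse 9 to 18. The lowest, with 1 NZB mouse in the fit, came without NZB replicate 1 or 3 (9 each), and NZW replicates 3 and 2 gave 10 and 11. For NZBWF1 against NZB (2), the counts were 4 without the filter on low counts, 0 with the minimum of 10, 1 with all 9 mice, 11 at 500 UMIs with all 9 mice, 6 without cells rich in *S100a8* and *S100a9*, and 1 to 9 with a mouse left out (9 without NZB replicate 3 or NZW replicate 2). For NZBWF1 against NZW (2), they were 0 with the minimum of 10 and 1 to 3 with a mouse left out. Against the mean of the parents (2), they were 1 with RLE scaling, 0 with the minimum of 10, 1 with all 9 mice, 4 at 500 UMIs with all 9 mice, 4 without the *S100a8* and *S100a9* cells, and 1 to 4 with a mouse left out. In the 3 fits of edgeR with a count of 0, 23, 11, and 11 of 284 genes had an unadjusted p under 0.05. The minimum of 10 had left *Ftl1* and *Ftl1-ps1* out of the test, so these fits could not call them. *Ftl1* held 7 and 8 UMIs in NZW replicates 1 and 3, and *Ftl1-ps1* held 4 and 2 in NZB replicates 1 and 3. Selections with at least 2 UMIs, or without *Ccr2* and *F13a1*, left 6 mice with 10 members. *S100a6* reversed against the mean of the parents with at least 2 UMIs of *Treml4* and *Ace* (log2 fold change -0.0113).

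Nonclassical against classical monocytes (367) gave 966 without the filter, where all genes with 1 count were tested, 168 with the minimum of 10, 575 at 500 UMIs with all 9 mice, and 310 to 406 with a mouse left out. Without the filter the split was 186 higher and 780 lower, against 202 and 165. Its 30 named genes had 577 tests over the alternatives, since many were too low for some. They passed in 575, and *Mmp8* did not in 2. The interaction (2) gave 0 with DESeq2 (70 genes at an unadjusted p under 0.05). With edgeR it gave 0 with *Treml4* alone, all 9 mice, all other *Csf1r* cells, or no *S100a8* and *S100a9* cells (107 to 158 at that level), 1 with doublets removed, and 0 to 5 with a mouse left out (0 without NZW replicate 2 or 3). *Ftl1* and *Ftl1-ps1* kept their call between NZB and NZW under the 20 alternatives that tested them, which leaves out the minimum of 10. Apart from the 2 ferritin genes that the minimum of 10 left out, the cause of these changes was not tested.

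The numbers were not taken to pair the mice, a choice that these data do not settle. Deviations of same-numbered mice from the strain means correlated at -0.04 to 0.28, and not every one was over 0.1. The highest of all pairs, 0.24 and 0.28, joined same-numbered NZB and NZBWF1 mice. Since 2 NZB mice were tested, their deviations mirror each other, and these correlations cannot decide on pairing. Every strain lost most members to the limits, as a share, in its replicate 2 (NZB 86.5%, NZW 56.7%, NZBWF1 46.2%). That mouse also had the lowest share of members among *Csf1r* cells (5.95%, 10.4%, and 7.05%), and replicate 1 the fewest called barcodes. What same-numbered mice share was not tested. With the replicate block, the calls were 19 between the parents, 10 between the hybrid and NZB, 3 between the hybrid and NZW, and 4 against the mean of the parents, and the share gave an exact permutation p = 0.861. A limit of 2000 UMIs and 1000 genes left 30 members, too few per mouse for tests of genes. Low counts limit all of these, since 664 genes could be tested between strains.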

Other observations

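The 144 barcodes that met the gene conditions but fell under the limits had a median of 796 UMIs and entered tests only in the alternative with a limit of 500 UMIs, and there in part. Pooled, they held 336 CPM of *Nr4a1*, 354 CPM of *Cd300e*, 513 CPM of *Eno3*, and 1956 CPM of *Gngt2*, each at or above the level of the 200 members (270, 155, 327, and 1456 CPM). Of the classical markers, *Fn1* was at 26.5 CPM, *Ly6c2* at 35.4 CPM, and *F13a1* at 0, against 346, 431, and 190 CPM in the members. *Apoe* was at 1558 CPM against 628 CPM, and *Bcl2a1b* at 531 CPM against 282 CPM. Both of these genes differed between NZB and NZW, and the mix of strains was not the same. The barcodes under the limits were 52 of NZB, 60 of NZW, and 32 of NZBWF1, against 43, 88, and 69 members. The part of that mix in these pooled levels was not tested.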
